A study of Mus musculus with 6 samples.

Results

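The genes described here encode the enzymes that make glutathione, return it to its reduced form, and use it to remove peroxides or to conjugate other molecules. They were picked by symbol, and the set was proposed with earlier results of these data known. It holds the glutathione S-transferases of the alpha, kappa, mu, omega, pi, theta and zeta classes. Symbols of these start with Gsta, Gstk, Gstm, Gsto, Gstp, Gstt and Gstz. The microsomal transferases (Mgst), the glutathione peroxidases (Gpx), and Gclc, Gclm, Gss and Gsr complete it. The set came to 37 of the 55367 genes measured. Of these, 28 passed a filter of at least 1 FPKM (fragments per kilobase of gene, scaled to depth, so that levels can be compared between genes) in at least 2 libraries, and 9 lay below it. Glutathione is built from glutamate, cysteine and glycine by glutamate-cysteine ligase (catalytic subunit Gclc, modifier subunit Gclm) and then glutathione synthetase (Gss). Peroxidases oxidize it while they reduce hydrogen peroxide or lipid peroxides, glutathione reductase (Gsr) restores it with NADPH, and transferases attach it to reactive molecules. The kidney takes up and breaks down circulating glutathione, and its proximal tubule is a known source of the plasma peroxidase Gpx3.

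Polyadenylated RNA was sequenced from mouse kidney cells isolated by binding of the plant lectin DBA (Dolichos biflorus lectin), a marker of the collecting duct, to ask what changed with loss of Pkd1 and what changed with the nanoparticle MMPP. WT mice were Pkd1+/+ and received saline; whether they also received tamoxifen is not given in the sources used here. ADPKD mice were Pkd1-/- and also received saline: they were male Pkd1fl/fl;Cre/Esr1+ mice in which intraperitoneal tamoxifen, given in the fourth postnatal week, induced the deletion. MMPP-treated ADPKD mice had the same genotype and received repeated intravenous MMPP, an ultra-small melanin-like particle with chelated manganese and a polyethylene glycol coat, over about 2 months. Every group was taken at the same age (Day115) and had 2 libraries. The promoter that drives the Cre and the mouse strain are not given in the sources used here. The description of the RNA extraction speaks both of DBA-positive cells and of whole kidney. No library from MMPP-treated WT mice was analysed here. The labels do not say that replicates came from separate animals, so p-values measure the spread between these libraries, which may be technical.

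The summed FPKM was 266194 and 266726 in WT replicates 1 and 2, 284459 and 281586 in ADPKD, and 350159 and 351015 in MMPP-treated ADPKD. The product of FPKM and exon length came in steps of 1 read, so depth (in M reads) was 30.6 and 31.0 for the WT libraries, 33.1 and 32.1 for the ADPKD libraries, and 11.8 and 10.9 after MMPP. Among values under 50 reads, between 98.6% and 99.1% in each library lay within 0.1 read of a whole number. Odd read numbers made up 37.5% to 39.1% of these low values in the WT and ADPKD libraries but 8.87% and 8.35% in the treated libraries. So the treated libraries stood apart from the others in depth and in the share of odd read numbers. Treatment cannot be told apart from these differences in any comparison that uses the treated libraries. The sources used here do not say whether these libraries were quantified with the same settings as the others, and this was not tested. Other settings would change what their depth and FPKM mean. Across the tested genes, which are not independent replicates, Pearson's r between log2 values of the 2 replicates was 0.984 in WT, 0.958 in ADPKD and 0.992 in MMPP-treated ADPKD.

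Pkd1, the deleted gene, was measured at 17.7 and 17.2 FPKM in WT, 7.64 and 8.91 FPKM in ADPKD, and 4.34 and 3.99 FPKM in MMPP-treated ADPKD. Every Pkd1-/- library lay below both WT libraries. The log2 fold change of ADPKD against WT was -0.998 (SE 0.13; limma with Benjamini-Hochberg adjusted p = 0.00566). Markers of the collecting duct principal cell were present in every group but at unlike levels. Aqp2, the apical water channel and by its mean over the 6 libraries the most abundant of 12 listed, was at 1267 and 1776 FPKM in WT, 1392 and 677 FPKM in ADPKD, and 3555 and 3499 FPKM after MMPP. In ADPKD replicate 2 it was below Krt8, at 1494 FPKM. The sum of the 12 markers was 2400 and 3186 FPKM in WT, 3793 and 2573 FPKM in ADPKD, and 8057 and 8234 FPKM after MMPP, but most of it was carried by Aqp2, Krt8, Hsd11b2 and Aqp3. Several other listed markers were low or went the other way. Elf5 was at 0.936 to 4.97 FPKM and Aqp4 at 2.23 to 19.3 FPKM. Scnn1b was at 133 and 56.7 FPKM in ADPKD and 26.2 and 23.7 FPKM after MMPP. Scnn1g instead rose with the sum after MMPP, from 53.5 and 19.6 FPKM in ADPKD to 118 and 125 FPKM. Gata3 stayed between 14.8 and 20.8 FPKM. Avpr2 was at 0 in ADPKD replicate 2 and at most 0.06 FPKM elsewhere.

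In ADPKD against WT, glutathione genes were more often higher than lower. Glutathione synthetase, glutathione reductase, the peroxidases Gpx1, Gpx3 and Gpx7, and the transferases Gsto1, Gstm5, Gstt2 and Mgst1 were higher, while the transferases Gsta4 and Gstm1 were lower. A gene was called at a fold of at least 1.5 on the log2(FPKM + 1) scale and a limma Benjamini-Hochberg adjusted p under 0.05 over all 14862 tested genes. By this rule 9 of the 28 tested members (32.1%) were higher and 2 (7.14%) were lower, beside 11.9% of all tested genes higher and 10.6% lower. The counts by class and of markers given below for this comparison stand beside the same shares. The median of the log2 fold change was 0.37 over the 28 members and 0.03 over all tested genes. The sign was positive for 19 members and negative for 9. The counts depended on single libraries: 4 members were higher without WT replicate 1 and 2 without WT replicate 2, when the lone WT library is assumed to vary like the other groups, and 6 were lower without ADPKD replicate 1 (Gpx6, Gstk1, Gstt1 and Gstt3 beside Gsta4 and Gstm1). Counts over all tested genes moved in the same fits, from 1775 higher to 571 without WT replicate 1 and 586 without WT replicate 2, and from 1574 lower to 2189 without ADPKD replicate 1. Gclc was called higher only without ADPKD replicate 1, and Gsta2 and Gsta3 only without ADPKD replicate 2, among the fits that left out a library of the comparison.

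Markers of macrophages and other leukocytes moved with this comparison. All 10 listed were higher in ADPKD, with a summed level of 112 and 98.0 FPKM in WT, 623 and 813 FPKM in ADPKD, and 1352 and 1403 FPKM after MMPP. Lyz2, the most abundant by its mean over the 6 libraries, was at 7.63 and 8.69 FPKM in WT and 188 and 224 FPKM in ADPKD. In WT Cd14 was the highest of the list, at 42.4 and 29.4 FPKM. None of the 10 was at 0 in the WT and ADPKD libraries. Ptprc and Itgam passed the filter through the ADPKD libraries alone, which favours their being called higher there. Intercalated cell markers were lower for 7 of 8, from summed levels of 311 and 338 FPKM in WT to 79.3 and 33.1 FPKM in ADPKD. Atp6v1b1, the most abundant by the same mean, was at 61.5 and 58.0 FPKM in WT and 28.7 and 7.53 FPKM in ADPKD. It was below Slc26a4 in WT (83.6 and 109 FPKM) and below Atp6v0d2 in ADPKD replicate 2 (10.6 FPKM). The part of either list in the results on glutathione genes was not tested, and in such bulk samples fewer cells of a type and less RNA per cell cannot be told apart.

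The enzymes of synthesis and reduction had positive log2 fold changes for 4 of 4, with a median of 1.32, and 2 of them passed the test. Gss, which adds glycine in the last step of synthesis, was at 3.93 and 3.68 FPKM in WT and 14.9 and 13.1 FPKM in ADPKD. The groups did not overlap, and the ADPKD mean was 3.68 times the WT mean. Gss rose by a log2 of 1.64 (SE 0.13; limma, Benjamini-Hochberg adjusted p = 0.00308), and the call held when any library of the comparison was left out. Gsr, the NADPH-dependent reductase, was at 10.1 and 12.5 FPKM in WT and 29.0 and 56.4 FPKM in ADPKD. Both ADPKD libraries were above both WT libraries but lay far from each other. Gsr rose by a log2 of 1.76 (SE 0.31; limma, Benjamini-Hochberg adjusted p = 0.0130), a call that was lost without either WT library and in the fit without the FPKM filter (adjusted p = 0.0505). Gclc, the catalytic and rate-limiting subunit of the ligase, was at 58.2 and 85.6 FPKM in WT and 101 and 199 FPKM in ADPKD. The groups did not overlap, yet the spread within each was wide, and the log2 fold change of 0.99 (SE 0.35) did not pass the test (limma, Benjamini-Hochberg adjusted p = 0.0884). With a replicate block Gclc was called higher (limma, Benjamini-Hochberg adjusted p = 0.0484). Gclm, the modifier subunit, was at 10.9 and 15.8 FPKM in WT and 17.2 and 23.8 FPKM in ADPKD and did not pass either (log2 fold change 0.59; limma, Benjamini-Hochberg adjusted p = 0.112).

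Of the 6 tested peroxidases 3 were higher in ADPKD and none was lower at the adjusted threshold of limma, with a median log2 fold change of 0.42. At an unadjusted p under 0.05 Gpx6 was also called, as lower. Gpx3, the secreted plasma enzyme, was the most abundant glutathione gene in every library, at 378 and 396 FPKM in WT and 1274 and 1300 FPKM in ADPKD. Among all measured genes it ranked 72 and 70 in the WT libraries and 6 and 7 in the ADPKD libraries. Gpx3 rose by a log2 of 1.73 (SE 0.11; limma, Benjamini-Hochberg adjusted p = 0.00199), and the log2 fold change stayed between 1.70 and 1.76 when libraries of the comparison were left out. Gpx1, the main peroxidase of cytosol and mitochondria, was at 244 and 250 FPKM in WT and 442 and 359 FPKM in ADPKD. Both ADPKD libraries were above WT, with a log2 fold change of 0.69 (SE 0.14; limma, Benjamini-Hochberg adjusted p = 0.0214) that lost its call without ADPKD replicate 1 or either WT library. It also had no call with quantile normalization (log2 fold change 0.50) or in a fit of only the 4 libraries compared. Gpx7, a peroxidase of the endoplasmic reticulum, was at 4.95 and 5.29 FPKM in WT and 9.24 and 7.84 FPKM in ADPKD. It rose by a log2 of 0.64 (SE 0.14; limma, Benjamini-Hochberg adjusted p = 0.0229), and the call was lost on leaving out the same libraries as for Gpx1, at a common sum (log2 fold change 0.57) and in the fit of 4 libraries.

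Gpx4, which reduces phospholipid peroxides in membranes and limits ferroptosis, was at 128 and 135 FPKM in WT and 150 and 148 FPKM in ADPKD. The ADPKD libraries were both higher, but the log2 fold change of 0.18 (SE 0.11) did not pass (limma, Benjamini-Hochberg adjusted p = 0.285). Gpx8, a membrane protein of the endoplasmic reticulum, was at 25.9 and 28.0 FPKM in WT and 32.1 and 30.3 FPKM in ADPKD. Its log2 fold change was 0.21 (SE 0.12; limma, Benjamini-Hochberg adjusted p = 0.241). Gpx6, known from olfactory epithelium, was at 24.2 and 9.96 FPKM in WT and 5.13 and 0.638 FPKM in ADPKD. Both ADPKD libraries were lower than both WT libraries, and the log2 fold change of -2.39 (SE 0.68, the largest of the tested members) stood just outside the threshold (limma, Benjamini-Hochberg adjusted p = 0.0505). Gpx6 was called lower under 7 of the 11 other settings tried with all libraries of the comparison. Its log2 fold change lay between -3.34 and -1.44 on leaving out a library of the comparison. Gpx2, known from the gut, and Gpx5, known from the epididymis, were below the filter.

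The peroxidases differ in the residue of their active site, which the genome encodes as TGA, read as selenocysteine, or as a cysteine codon. In the coding sequences of GENCODE vM21 (GRCm38), Gpx1 to Gpx4 each had 1 in-frame TGA before the end and Gpx5 to Gpx8 had 0. The 27 bases around this codon are shown because they divide the family by its need for selenium; capitals mark the codon, which is number 47 in Gpx1, 40 in Gpx2, 73 in Gpx3, 129 in Gpx4, 73 in Gpx5, 73 in Gpx6, 56 in Gpx7 and 79 in Gpx8.
Gpx1: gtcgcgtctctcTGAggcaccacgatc
Gpx2: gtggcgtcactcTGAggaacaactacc
Gpx3: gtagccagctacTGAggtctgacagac
Gpx4: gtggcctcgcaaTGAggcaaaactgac
Gpx5: gtggctacctatTGCggtctgacaatc
Gpx6: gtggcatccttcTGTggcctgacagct
Gpx7: gtagctagcgaaTGTggcttcacagac
Gpx8: gtggctagtgacTGCcgcttcacagac

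The 4 genes with TGA summed to 751 and 781 FPKM in WT, 1865 and 1808 FPKM in ADPKD, and 9469 and 8962 FPKM after MMPP. The 4 genes with a cysteine codon summed to 55.1 and 43.3 FPKM in WT, 46.5 and 38.8 FPKM in ADPKD, and 125 and 124 FPKM after MMPP. The selenocysteine group thus carried most of the peroxidase RNA in each library, and Gpx3 was its most abundant gene throughout.

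Among the alpha class transferases, which conjugate products of lipid peroxidation, 1 of 3 tested was lower in ADPKD. Gsta4, which acts on hydroxynonenal, was at 38.3 and 39.9 FPKM in WT and 13.3 and 13.2 FPKM in ADPKD. The replicates lay close together, and the WT mean was 2.95 times the ADPKD mean. Gsta4 had a log2 fold change of -1.49 (SE 0.16; limma, Benjamini-Hochberg adjusted p = 0.00439), a call that held in all 4 fits that left out a library of the comparison. Gsta2 was at 6.95 and 6.92 FPKM in WT and 16.0 and 9.65 FPKM in ADPKD, and Gsta3 at 6.66 and 7.26 FPKM and then 12.5 and 8.75 FPKM. For both the ADPKD libraries were above the WT libraries, but neither passed the test, with log2 fold changes of 0.76 and 0.53. Gsta1 lay below the filter.

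The mu class had members called in each direction, and 3 of its 5 tested genes had negative log2 fold changes. Gstm1, the most abundant transferase in WT, was at 233 and 242 FPKM in WT and 131 and 154 FPKM in ADPKD. The groups did not overlap, and Gstm1 had a log2 fold change of -0.73 (SE 0.13; limma, Benjamini-Hochberg adjusted p = 0.0131). That call was lost without either WT library and in a fit centred by annotation, where the log2 fold change was -0.58. Gstm5, from the same gene cluster, was at 6.19 and 6.32 FPKM in WT and 28.7 and 17.0 FPKM in ADPKD. Both ADPKD libraries were far above WT, and Gstm5 rose by a log2 of 1.67 (SE 0.24; limma, Benjamini-Hochberg adjusted p = 0.00761). The call was lost without WT replicate 1 or 2, where the log2 fold change was 1.66 and 1.69. Gstm2 was at 125 and 149 FPKM in WT and 122 and 91.4 FPKM in ADPKD. Its ADPKD values were both lower than its WT values but near them, and the log2 fold change of -0.37 (SE 0.18) did not pass (limma, Benjamini-Hochberg adjusted p = 0.186). Gstm4, at 1.63 to 4.18 FPKM, and Gstm7, at 1.07 to 2.28 FPKM in these 4 libraries, did not pass.

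The omega class held the widest difference of the family. Gsto1, a transferase with a cysteine in its active site that also reduces dehydroascorbate, was at 17.6 and 15.5 FPKM in WT and 129 and 358 FPKM in ADPKD. Both ADPKD libraries were far above WT, although they also lay far from each other, and the ADPKD mean was 14.7 times the WT mean. Gsto1 rose by a log2 of 3.62 (SE 0.46; limma, Benjamini-Hochberg adjusted p = 0.00562). The log2 fold change was between 2.89 and 4.35 on leaving out a library of the comparison, and the call was lost without WT replicate 2.

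In the theta class 1 of 3 tested members was higher. Gstt2 was at 9.69 and 7.10 FPKM in WT and 15.8 and 15.5 FPKM in ADPKD. The groups were apart, and Gstt2 rose by a log2 of 0.84 (SE 0.16; limma, Benjamini-Hochberg adjusted p = 0.0164), with the call lost without WT replicate 2. Gstt1, which acts on small halogenated molecules, was at 63.8 and 64.7 FPKM in WT and 89.5 and 33.2 FPKM in ADPKD. The ADPKD libraries lay on either side of WT, so that the log2 fold change of -0.23 (SE 0.43; limma, Benjamini-Hochberg adjusted p = 0.723) became 0.47 without ADPKD replicate 2 and -0.93, with a call, without ADPKD replicate 1. Gstt3 was at 5.75 and 5.07 FPKM in WT and 5.57 and 2.89 FPKM in ADPKD, and these groups overlapped.

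The pi class, whose Gstp1 also binds stress kinases, did not pass the test. Gstp1 was at 34.4 and 35.5 FPKM in WT and 36.5 and 35.1 FPKM in ADPKD, groups that overlapped, with a log2 fold change of 0.03 (SE 0.11; limma, Benjamini-Hochberg adjusted p = 0.845). Gstp2 was at 0.353 to 0.784 FPKM in the 4 libraries. Gstz1, the maleylacetoacetate isomerase of tyrosine breakdown, was at 4.35 and 3.47 FPKM in WT and 5.48 and 3.05 FPKM in ADPKD, again overlapping. Gstk1, a kappa class enzyme of mitochondria and peroxisomes, was at 16.7 and 15.5 FPKM in WT and 12.4 and 5.99 FPKM in ADPKD. Both ADPKD libraries were lower, but the log2 fold change of -0.82 did not pass (limma, Benjamini-Hochberg adjusted p = 0.0996).

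Of the microsomal transferases, membrane proteins unrelated in fold to the soluble classes, 1 of 2 tested was higher. Mgst1, found in the endoplasmic reticulum and the outer mitochondrial membrane, was at 23.2 and 26.9 FPKM in WT and 45.5 and 53.7 FPKM in ADPKD. The groups did not overlap, and Mgst1 rose by a log2 of 0.96 (SE 0.21; limma, Benjamini-Hochberg adjusted p = 0.0236). The call was lost without ADPKD replicate 2 or either WT library, and in the fit without the filter. Mgst3 was at 42.9 and 28.2 FPKM in WT and 55.2 and 46.3 FPKM in ADPKD. Its ADPKD libraries were above both WT libraries, but the log2 fold change of 0.53 (SE 0.22) did not pass (limma, Benjamini-Hochberg adjusted p = 0.132).

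**Figure D1:**
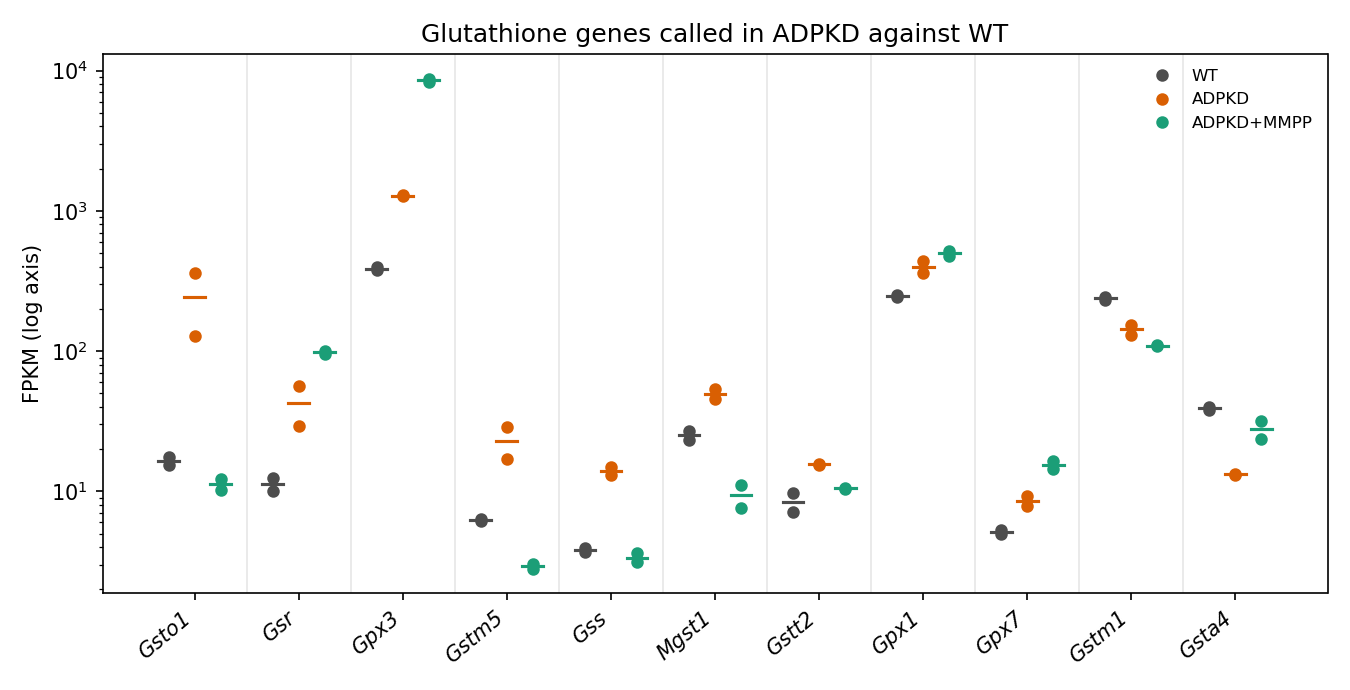
FPKM on a log axis of the 11 glutathione genes called in ADPKD against WT, with a point for each of the 6 libraries and a bar at each group mean. Gsto1 has the widest gap between WT and ADPKD (17.6 and 15.5 against 129 and 358 FPKM), and Gpx3 lies above the other genes in every group.

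The 9 members below the filter were low in every group. Gpx5 had 2 reads in each WT library and 0 in the others, and Gpx2 had 0 reads in both treated libraries and at most 0.0678 FPKM elsewhere. Gstm3, Gstp3, Gstt4 and Mgst2 stayed at or below 0.343 FPKM in every library. Gsta1 reached 1.599 FPKM, Gstm6 1.92 FPKM and Gsto2 3.48 FPKM, each in a single ADPKD library. Gsto2, the neighbour of Gsto1, was at 0.640 and 0.908 FPKM in WT, 0.772 and 3.48 FPKM in ADPKD, and 0.216 and 0.156 FPKM after MMPP. No fold change is given for these genes.

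The comparison of MMPP-treated with untreated ADPKD asks which of these levels differed after treatment. The peroxidases Gpx3, Gpx6, Gpx7 and Gpx8, glutathione reductase and 9 transferases were higher, while glutathione synthetase, Gstm5, Gsto1 and Mgst1 were lower. All 4 genes called lower were among the 9 called higher in ADPKD against WT. Of the rest of the 9, Gpx3, Gpx7 and Gsr were called higher again, and Gpx1 and Gstt2 had no call. Both comparisons use the same ADPKD libraries, and the overlap to be had from this alone was not computed. Of the 28 tested members 14 (50%) were higher and 4 (14.3%) lower, beside 27.7% of all tested genes higher and 42.6% lower. The 14 include Gstp2, which passed the filter through the treated libraries alone. The median of the log2 fold change was 0.55 over the members and -0.36 over all tested genes. In this comparison the treatment cannot be told apart from the differences in depth and in odd read numbers.

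The log2 fold change between treated and untreated ADPKD was related across genes to their annotation. Over 12374 protein-coding genes, Spearman's rho between the log2 fold change and the percentage of exonic sequence annotated in no more than 1 transcript of the gene was 0.648, against 0.0451 for ADPKD against WT; both are descriptions across genes, which are not independent. Each treated comparison is therefore also given after the libraries were centred within 20 bins of that percentage (termed centred). Centred, 18 members were higher and 4 lower, beside 33.5% and 24.3% of the 12374 genes, with a median of 1.20 over members and 0.15 over all genes. For ADPKD against WT, 10 members were higher and 2 lower when centred, beside 12.3% and 12.5% of all genes. Under other scalings of MMPP-treated against untreated ADPKD the median of all genes was -0.55 with libraries at a common sum, -0.13 with TMM factors and 0.10 with quantile normalization. The members higher and lower were 11 and 6 at a common sum, 17 and 4 with TMM factors, and 13 and 5 with quantile normalization. Among all tested genes 3276 were higher and 7017 lower at a common sum, 5010 and 5605 with TMM factors, and 5299 and 4528 with quantile normalization, where 4113 were higher and 6332 lower as deposited.

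Gss was at 3.61 and 3.11 FPKM after MMPP, below both ADPKD libraries (14.9 and 13.1 FPKM) and just below WT. Its log2 fold change against ADPKD was -1.78 (SE 0.13; limma, Benjamini-Hochberg adjusted p = 0.000106) and -1.79 when centred. Gsr was at 94.7 and 101 FPKM after MMPP, above both ADPKD libraries (29.0 and 56.4 FPKM). It rose by a log2 of 1.25 (SE 0.31; limma, Benjamini-Hochberg adjusted p = 0.0118), but the call was lost without either treated library and when centred, where the log2 fold change was 0.83. Gclc was at 184 and 185 FPKM after MMPP, between the ADPKD libraries, and its log2 fold change of 0.38 (SE 0.35; limma, Benjamini-Hochberg adjusted p = 0.356) became -0.73 when centred. Without ADPKD replicate 2 it was 0.86, with a call. Gclm was at 25.2 and 23.5 FPKM and overlapped ADPKD.

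Among the peroxidases 4 of 6 tested were higher after MMPP as deposited and 5 of 6 when centred, beside 27.7% and 33.5% of all genes in these fits. Gpx3 was at 8789 and 8321 FPKM, against 1274 and 1300 FPKM in ADPKD, and ranked 2 among all genes in both treated libraries. The ratio of means was 6.65, and Gpx3 rose by a log2 of 2.73 (SE 0.11; limma, Benjamini-Hochberg adjusted p = 2.48e-05), or 3.08 centred. The size depended on the scaling, at 2.42 with a common sum, 3.07 with TMM factors and 1.01 with quantile normalization, each with a call. Gpx6 was at 51.8 and 49.7 FPKM after MMPP, above all WT and ADPKD libraries. It rose by a log2 of 4.03 (SE 0.68; limma, Benjamini-Hochberg adjusted p = 0.00242), or 3.82 centred, and the log2 fold change was 3.08 without ADPKD replicate 2 and 4.98 without ADPKD replicate 1. Gpx8, at 56.7 and 59.6 FPKM, was also above all other libraries. Its log2 fold change was 0.88 (SE 0.12; limma, Benjamini-Hochberg adjusted p = 0.000956) as deposited and 2.60 centred, and it lost its call at a common sum. Gpx7, at 16.4 and 14.5 FPKM, had a log2 fold change of 0.79 (SE 0.14; limma, Benjamini-Hochberg adjusted p = 0.00275) that was 0.37, without a call, when centred, and had no call at a common sum. Gpx1 and Gpx4 depended on the scaling for their sign. Gpx1 was at 519 and 480 FPKM after MMPP, and its log2 fold change was 0.33 (SE 0.14; limma, Benjamini-Hochberg adjusted p = 0.0834) as deposited, -0.073 with quantile normalization and 1.71, with a call, when centred. Gpx4 was at 161 and 160 FPKM, with 0.11 (SE 0.11; limma, Benjamini-Hochberg adjusted p = 0.388) as deposited, -0.20 at a common sum and 0.76, with a call, when centred.

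The transferases that had been high in ADPKD were lower after MMPP for Gsto1, Gstm5 and Mgst1. Gsto1 was at 12.3 and 10.2 FPKM, below every WT and ADPKD library, with a log2 fold change of -4.14 (SE 0.46; limma, Benjamini-Hochberg adjusted p = 0.000441), or -3.26 centred. On leaving out a library of the comparison it lay between -4.87 and -3.41. Gstm5 was at 3.05 and 2.80 FPKM, again below all other libraries, with -2.56 (SE 0.24; limma, Benjamini-Hochberg adjusted p = 0.000245), or -0.84 centred. Mgst1 was at 11.2 and 7.56 FPKM, with -2.30 (SE 0.21; limma, Benjamini-Hochberg adjusted p = 0.000211), or -1.42 centred. Each stayed lower than in ADPKD under every scaling tried and on leaving out any library of the comparison. Gstt2 was at 10.4 and 10.6 FPKM, below ADPKD by a log2 fold change of -0.53 (SE 0.16; limma, Benjamini-Hochberg adjusted p = 0.0245) that was short of the fold threshold, and was called lower at a common sum (-0.82).

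Gsta4, which was lower in ADPKD, was at 23.8 and 31.9 FPKM after MMPP, between ADPKD and WT. It rose by a log2 of 1.002 (SE 0.16; limma, Benjamini-Hochberg adjusted p = 0.00210) against ADPKD, or 0.99 centred. Gstm1, the other gene lower in ADPKD, was at 108 and 111 FPKM after MMPP, below every other library. Its log2 fold change of -0.37 (SE 0.13; limma, Benjamini-Hochberg adjusted p = 0.0390) was short of the fold threshold, and it was 1.41, with a call, when centred. At a common sum and with quantile normalization it was called lower (-0.68 and -0.66), so no direction can be given. Gstm2 was at 148 and 147 FPKM, with 0.47 (SE 0.18; limma, Benjamini-Hochberg adjusted p = 0.0525) as deposited and 1.86, with a call, when centred. Gstm7 was higher, at 3.70 and 2.63 FPKM, and Gstm4, at 2.58 and 2.15 FPKM, overlapped ADPKD (-0.14 as deposited and 1.80, with a call, when centred).

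Several transferases that did not pass in ADPKD against WT were higher after MMPP. Mgst3, at 237 and 230 FPKM, was far above all other libraries, and it rose by a log2 of 2.18 (SE 0.22; limma, Benjamini-Hochberg adjusted p = 0.000309), or 1.02 centred. Gstt1, at 160 and 166 FPKM, rose by a log2 of 1.56 (SE 0.43; limma, Benjamini-Hochberg adjusted p = 0.0177), or 2.23 centred. The call was lost without either treated library and in the fit without the filter. On leaving out a library of the comparison, the log2 fold change of Gstt1 lay between 0.86 and 2.26. Gstp1, at 55.7 and 56.1 FPKM, had a log2 fold change of 0.63 (SE 0.11; limma, Benjamini-Hochberg adjusted p = 0.00286), or 2.35 centred, and it had no call at a common sum or with quantile normalization. Gstt3 was at 23.0 and 23.3 FPKM, Gstz1 at 13.6 and 13.0 FPKM and Gsta2 at 34.8 and 36.0 FPKM. These last genes were called higher both as deposited and when centred, with log2 fold changes of 2.26 for Gstt3, 1.48 for Gstz1 and 1.43 for Gsta2 as deposited. Gstp2 was also called higher, at 1.98 and 3.13 FPKM against 0.462 and 0.364 FPKM in ADPKD, but it was tested only because of its level in the treated libraries. Gsta3, at 13.5 and 14.0 FPKM, did not pass (0.36, or -0.45 centred), and Gstk1, at 9.57 and 9.86 FPKM, was called when centred (1.33) but not as deposited (0.15). Gsta3, Gstk1 and Gstm2 were also called higher without ADPKD replicate 1, at log2 fold changes of 0.59, 0.62 and 0.68.

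**Figure D2:**
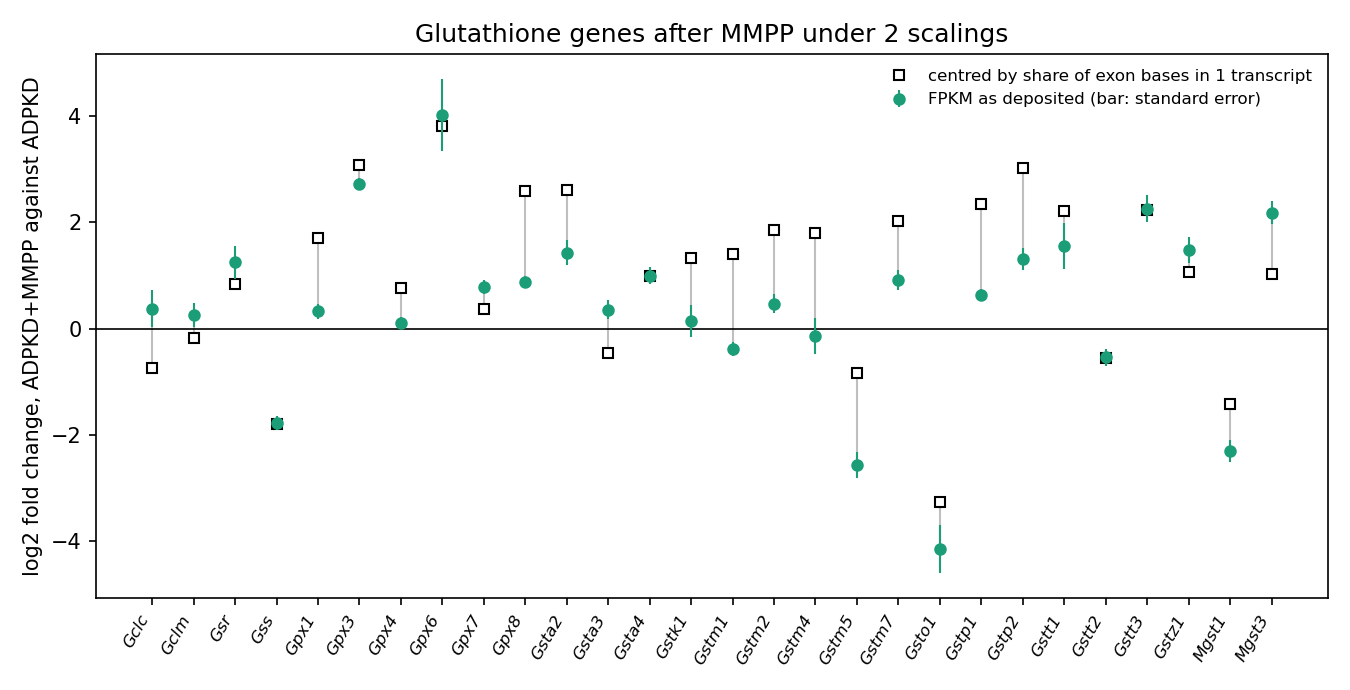
Log2 fold change of MMPP-treated against untreated ADPKD for the 28 tested glutathione genes, with filled points and SE bars for FPKM as deposited and open squares for values centred by transcript annotation. Gss (-1.78 and -1.79) and Gsto1 (-4.14 and -3.26) are below 0 on both scales, Gpx3 (2.73 and 3.08) and Gpx6 (4.03 and 3.82) are above 0 on both, and Gstm1 changes sign (-0.37 and 1.41).

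Markers of the proximal tubule moved with the treated comparison. Of 14 listed, 10 were higher and 1 was lower in MMPP-treated against untreated ADPKD, beside 27.7% and 42.6% of all tested genes. Their summed level was 398 and 171 FPKM in WT, 702 and 115.2 FPKM in ADPKD, and 13947 and 13235 FPKM after MMPP. The most abundant was Kap, a kidney androgen-regulated gene, at 234 and 101 FPKM in WT, 509 and 64.0 FPKM in ADPKD, and 12822 and 12116 FPKM after MMPP. Hnf4a, a transcription factor of the proximal tubule, was at 0.04 FPKM and 0 in the treated libraries and at 5.37 to 7.28 FPKM in ADPKD. Cubn, also on the list, was at 2.16 and 0.867 FPKM in ADPKD and 14.3 and 13.8 FPKM after MMPP. It would not have passed the filter without the treated libraries, which favours a call as higher there. In ADPKD against WT 4 of the 14 were higher and 0 lower. Intercalated cell markers were higher after MMPP for 6 of 8, with summed levels of 234 and 235 FPKM and Atp6v1b1 at 78.3 and 76.2 FPKM. Of the 10 leukocyte markers 4 were higher and 5, Ptprc and Itgam among them, lower, with Lyz2 at 568 and 565 FPKM and Itgam at 0 in both treated libraries. Of the 11 tested principal cell markers 5 were higher and 3 lower. The part of these cell types in the changes of Gpx3 and the other genes was not tested.

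For the other marker lists, calls in ADPKD against WT and then in MMPP-treated against untreated ADPKD were as follows. Over all tested genes 11.9% were higher and 10.6% lower in the former comparison, and 27.7% and 42.6% in the latter. Of 5 podocyte genes 5 and then 3 were lower, and of 7 endothelial genes 6 and then 4 were lower. The other endothelial gene, Plvap, was higher in ADPKD, at 146 and 127 FPKM in WT and 242 and 277 FPKM in ADPKD. Of 7 fibroblast genes 5 were higher in ADPKD and 1 lower, and 2 were then higher and 3 lower. Lum, among those higher in ADPKD, was at 0.053 and 0.264 FPKM in WT and 1.26 and 1.73 FPKM in ADPKD. It would not have passed the filter without the ADPKD libraries, which favours its call there. Of 5 thick ascending limb genes 1 was lower and then 1 higher, and of 4 distal convoluted tubule genes 1 was higher and 1 lower, then 2 higher and 1 lower. Of 8 genes of dissociation and stress 6 were lower in ADPKD, and 5 were higher and 2 lower after MMPP. Of 5 erythroid genes 2 were tested. Hba-a1 was called in neither comparison, and Hbb-bs, which passed the filter through the treated libraries alone, was called higher after MMPP, at 3.75 and 1.43 FPKM against 0.157 and 0.162 FPKM in ADPKD.

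MMPP-treated ADPKD and WT differed in 15 members that were higher and 3 that were lower, beside 29.9% of all tested genes higher and 43.5% lower. Gstp2, admitted by the treated libraries alone, is again among those higher. The medians of the log2 fold change were 0.86 over the members and -0.36 over all tested genes. Centred, 18 were higher and 0 lower, beside 35.5% and 26.7% of the 12374 genes, and the 3 members with a negative log2 fold change were all short of the fold threshold. Gpx3 had the highest ratio of means, 22.1, with a log2 fold change of 4.46 (SE 0.11; limma, Benjamini-Hochberg adjusted p = 1.47e-05), or 2.91 with quantile normalization. Gsr had 3.01 (SE 0.31; limma, Benjamini-Hochberg adjusted p = 0.000301), and Gclc and Gclm were called higher here, at 1.37 and 0.84, though not when centred (0.23 and 0.38). Gstm1, Gstm5 and Mgst1 were lower than in WT as deposited, at -1.11, -0.89 and -1.35. When centred, Gstm1 and Gstm5 were called higher instead, at 0.82 and 0.78, and Mgst1 was at -0.48 without a call. Gss, Gsto1 and Gstt2 did not pass against WT as deposited, with log2 fold changes of -0.14, -0.52 and 0.31. These depended on the scaling: Gss was at 0.10 with TMM factors and 0.46 with quantile normalization, Gsto1 was at 0.35 when centred, and Gstt2 was called higher with TMM factors and quantile normalization (both 0.59). Gsta4 was at -0.49 and short of the fold threshold, but was called lower at a common sum (-0.87) and with quantile normalization (-0.68). This comparison shares its libraries with the other comparisons.

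Summed over the 37 genes, glutathione gene RNA was 1531 and 1603 FPKM in WT, 2803 and 2996 FPKM in ADPKD, and 10776 and 10276 FPKM after MMPP. These sums made up 0.575% and 0.601% of all FPKM in WT, 0.985% and 1.06% in ADPKD, and 3.08% and 2.93% after MMPP. Gpx3 carried most of the difference. Without it the sums were 1153 and 1207 FPKM, 1529 and 1695 FPKM, and 1987 and 1955 FPKM, or 0.433% and 0.453%, 0.538% and 0.602%, and 0.567% and 0.557% of all FPKM. As a share, the sum without Gpx3 in the treated libraries lay within the range of the ADPKD libraries.

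The classes made different parts of these sums. Synthesis and reduction rested mainly on Gclc, with sums of 83.1 and 118 FPKM in WT, 162 and 292 FPKM in ADPKD, and 307 and 313 FPKM after MMPP. The mu class, led by Gstm1 and Gstm2, summed to 370 and 403 FPKM in WT, 290 and 266 FPKM in ADPKD, and 265 and 266 FPKM after MMPP. So the mu class had the largest sum of the soluble transferase classes in every library but ADPKD replicate 2, where the omega class, at 361 FPKM, was above it. The alpha class summed to 52.0 and 54.3 FPKM in WT, 42.2 and 33.2 FPKM in ADPKD, and 73.0 and 82.0 FPKM after MMPP. The theta class summed to 79.3 and 76.9 FPKM, 111 and 51.8 FPKM, and 194 and 200.01 FPKM in the same order. The microsomal enzymes summed to 66.4 and 55.3 FPKM in WT, 101 and 100.1 FPKM in ADPKD, and 248 and 237 FPKM after MMPP, with Mgst3 rising and Mgst1 falling within the treated sum.

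The ADPKD replicates differed in which enzymes were high. Replicate 2 had more Gsto1 (358 against 129 FPKM), Gclc (199 against 101 FPKM) and Gsr (56.4 against 29.0 FPKM) than replicate 1. It had less Gstt1 (33.2 against 89.5 FPKM), Gpx6 (0.638 against 5.13 FPKM) and Gstk1 (5.99 against 12.4 FPKM). Marker sums differed between the same libraries, at 115.2 against 702 FPKM for the proximal tubule, 2573 against 3793 FPKM for principal cells and 813 against 623 FPKM for leukocytes. They were also lower in replicate 2 for the thick ascending limb (188 against 596 FPKM), podocytes (90.8 against 205 FPKM) and intercalated cells (33.1 against 79.3 FPKM). The distal convoluted tubule had 23.2 against 55.4 FPKM. Endothelial and fibroblast sums were slightly higher, at 546 against 528 FPKM and 172 against 153 FPKM. The part of these cell types in the values of the enzymes was not tested.

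Most transferase classes lie in gene clusters, here given in GRCm38 from GENCODE vM21. The 7 mu class genes lie together on chromosome 3, from Gstm5 (chr3:107895821-107898686) through Gstm7, Gstm6, Gstm3, Gstm2 (chr3:107981702-107986453) and Gstm1 (chr3:108012255-108017973) to Gstm4 (chr3:108040408-108044894). Gstm5 is on the plus strand and the other 6 are on the minus strand. Gstm5 was higher in ADPKD and Gstm1 lower, so genes of the same cluster were called in opposite directions. The theta class lies on chromosome 10 in the order Gstt3 (chr10:75774115-75781414), Gstt1 (chr10:75783813-75798584), Gstt4 and Gstt2 (chr10:75831114-75837424). Of these Gstt2 was higher in ADPKD and not called after MMPP, whereas Gstt3 and Gstt1 were called after MMPP but not in ADPKD against WT. Gsto1 (chr19:47854970-47864790) and Gsto2 (chr19:47865534-47886324) are neighbours on chromosome 19. On chromosome 9, Gclc (chr9:77754535-77794485), Gsta4 (chr9:78182774-78209349), Gsta1 and Gsta2 (chr9:78331018-78355788) follow each other, and Gpx1 lies farther along at chr9:108338903-108340343. Gpx5 and Gpx6 (chr13:21312125-21319624) are neighbours on chromosome 13. Gpx3 is at chr11:54902453-54910377, Gss at chr2:155563181-155592810, Gsr at chr8:33652523-33698163, Mgst1 at chr6:138140316-138156755 and Mgst3 at chr1:167371966-167393841.

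Close copies limit some of these values. In GENCODE vM21 transcripts, 84.7% of the 75-base windows of Gsta1 also occurred in transcripts of other genes, mostly the gene Gm3776. The share was 50.1% for Gstp2 and 29.2% for Gstp1, which share windows with each other, 36.6% for Gsta2, 29.8% for Gpx4, 21.6% for Gstm3, 11.7% for Gstm1 and 11.5% for Gstt3. How the authors' counting split such reads is not given in the sources used here, so the levels of these 8 genes are uncertain. Among genes called in ADPKD against WT, the share was 0 for Gpx1, Gpx3, Gpx7, Gss, Gsr, Gsto1, Gstm5, Gstt2, Mgst1 and Gsta4.

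Glutathione genes are known targets of the factor NRF2 (Nfe2l2), which binds antioxidant response elements, so their promoters were searched for the core of this element, TGACNNNGC, on both strands. RefSeq promoters of GRCm38.p6, 250 bases before to 50 after each start, were held for 33 of the 37 genes, all but Gclc, Gsr, Gsta4 and Gstt2. The letters were found in 5 of the 33 (15.2%), beside 4071 of all 32851 promoters (12.4%) and 1723 of the 10336 genes with a promoter that passed the FPKM filter (16.7%). The matches are shown for the members that hold one, 5′ to 3′ along each gene's own strand (minus for Gstm7, plus for the others) with 20 bases on each side, and capitals mark the match, which for Gclm and Mgst1 is on the opposite strand. They lie at chr3:122245403-122245451 for Gclm, chr1:21240444-21240492 for Gsta3, chr3:107895792-107895840 for Gstm5, chr3:107931715-107931763 for Gstm7 and chr6:138140451-138140499 for Mgst1, and a match is a description only. By the GENCODE vM21 positions, the stretches of Gstm7 and Mgst1 lie inside the gene, past its first base. There Gstm7 is at chr3:107926334-107931817 on the minus strand, and Mgst1 is at chr6:138140316-138156755 on the plus strand.
Gclm: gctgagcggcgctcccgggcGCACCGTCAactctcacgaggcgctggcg
Gsta3: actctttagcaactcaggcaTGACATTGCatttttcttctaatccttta
Gstm5: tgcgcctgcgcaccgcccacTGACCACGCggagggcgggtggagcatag
Gstm7: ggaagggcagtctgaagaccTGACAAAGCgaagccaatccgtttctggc
Mgst1: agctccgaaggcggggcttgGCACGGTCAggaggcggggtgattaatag

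Of these, Gstm5 and Mgst1 were higher in ADPKD and lower after MMPP, Gstm7 was called only after MMPP, as higher, and Gclm and Gsta3 were called in neither comparison. Nfe2l2 itself was at 88.8 and 86.5 FPKM in WT, 57.0 and 64.2 FPKM in ADPKD, and 154 and 151 FPKM after MMPP. The log2 fold change of ADPKD against WT was -0.53, short of the fold threshold, and -0.65, called lower, when centred. After MMPP it was 1.32 against ADPKD, called higher, and 0.25 without a call when centred.

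Other genes of glutathione metabolism, 56 on a list by role of which 52 were tested, were more often higher than lower in ADPKD. By the same limma rule 12 (23.1%) were higher and 4 (7.69%) lower, beside 11.9% and 10.6% of all tested genes, with medians of 0.26 and 0.03 for the log2 fold change. Centred, 12 were higher and 7 (13.5%) lower, beside 12.3% and 12.5% of the 12374 genes. Of the genes that export conjugates or carry glutathione 4 of 6 tested were higher, namely the efflux pumps Abcc1, Abcc2, Abcc3 and Abcc4. Abcc3, of the basolateral membrane, was at 1.94 and 1.05 FPKM in WT and 9.77 and 10.6 FPKM in ADPKD, a log2 fold change of 2.19. Abcc2, of the apical membrane, was at 1.57 and 0.878 FPKM in WT and 7.65 and 5.90 FPKM in ADPKD, a log2 fold change of 1.81. Both stood well above their WT levels. The largest log2 fold change among those with a group mean of at least 5 FPKM was that of Slc3a1, a subunit of the cystine transporter of the tubule, at 1.77 and 1.12 FPKM in WT and 21.8 and 7.02 FPKM in ADPKD (log2 fold change 2.48; limma, Benjamini-Hochberg adjusted p = 0.0164). Dpep1, the dipeptidase that splits cysteinylglycine, was higher too (1.49 and 1.97 FPKM, then 6.08 and 5.61 FPKM; log2 fold change 1.33), while the glutamyltransferase Ggt5 was lower (7.38 and 8.99 FPKM, then 2.12 and 1.20 FPKM; log2 fold change -1.80). By role, NADPH supply had 2 of 5 higher (Me1 and Pgd), glutaredoxins and glyoxalases 2 of 8 higher (Esd and Glrx), precursor supply 1 of 8 higher and 1 lower, turnover 1 of 11 higher and 2 lower, and the MAPEG and sigma class transferases 1 of 4 higher and 1 lower. Of 6 regulators 1, Bach1, was higher, and the 4 tested factors of selenoprotein synthesis lay between log2 fold changes of -0.18 and 0.26, within the fold threshold.

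After MMPP 19 of the 52 (36.5%) were higher and 18 (34.6%) lower than in ADPKD, beside 27.7% and 42.6% of all tested genes, with medians of -0.02 and -0.36. Centred, 27 (51.9%) were higher and 12 (23.1%) lower, beside 33.5% and 24.3% of the 12374 genes. Abcc4, a pump that also exports glutathione, was at 16.8 and 16.4 FPKM in ADPKD and 0.504 and 0.316 FPKM after MMPP, a log2 fold change of -3.65 (-1.71 centred). Slc3a1 was at 133 and 132 FPKM after MMPP, a further log2 fold change of 3.31 (2.15 centred). Oplah, which recycles oxoproline to glutamate, was lower, at 28.2 and 14.5 FPKM in ADPKD and 2.12 and 1.63 FPKM after MMPP (-2.89, or -1.51 centred). Sephs2, which makes the selenium donor for selenoproteins such as Gpx3, was higher, at 17.9 and 11.7 FPKM in ADPKD and 105 and 112 FPKM after MMPP (2.82, or 1.66 centred). Cth, which makes cysteine by transsulfuration, was higher as well, at 5.62 and 2.07 FPKM in ADPKD and 29.3 and 30.5 FPKM after MMPP (2.78, or 2.76 centred). Of the efflux pumps Abcc1 and Abcc3 were lower and Abcc2 higher after MMPP, although Abcc3 had no call when centred (-0.52).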

How the data were processed

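DBA-positive kidney cells of 3 groups (WT, ADPKD, MMPP-treated ADPKD) were sequenced as RNA, 2 libraries each. The authors aligned reads to GRCm38/mm10 with HISAT2 2.1.0, counted them with featureCounts 1.6.0, tested counts with DESeq2, and deposited FPKM for each library. The annotation release, strand setting and formula of FPKM are not given in the sources used here. FPKM are not counts, and DESeq2 was not run on the read numbers worked out from them.

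Genes that reached 1 FPKM in 2 or more libraries were tested on log2(FPKM + 1), a scale that understates changes of low genes, with limma 3.58.1 in R 4.3.3. One fit over the 6 libraries had group as its only term and no trend. A call needed a fold of at least 1.5, the study's threshold, and a Benjamini-Hochberg adjusted p under 0.05 over all tested genes in place of the study's p, whose adjustment is not stated. The steps were tested on simulated data. Tables were made with pandas 2.3.3 in Python 3.11.15. TMM factors were computed on FPKM by an own implementation of the method. GENCODE vM21 gave positions, exon lengths, transcripts and the percentage of exonic sequence annotated in 1 transcript only; depth came from the read steps of FPKM times exon length, and the 2 libraries of each group set the precision of each mean.

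The members, the list of other pathway genes, the marker lists and the tests were chosen with earlier results of these data known, and so was the centring by single-transcript percentage. Every member is named. Values in each library, with log2 fold change, SE and adjusted p, are given in ADPKD against WT and in MMPP-treated against untreated ADPKD for members called in the former or with a group mean of at least 50 FPKM. The rest have values or ranges, and MMPP-treated ADPKD against WT is summarised with selected log2 fold changes. Of the other pathway genes, the 5 called with the largest size of log2 fold change among those with a group mean of at least 5 FPKM are named for each of ADPKD against WT and MMPP-treated against untreated ADPKD; Nfe2l2 and the remaining names were chosen after their values were seen. Alternatives were a pseudocount of 0.1 FPKM, no filter, a common sum, TMM factors, quantile normalization, centring within 20 bins of the single-transcript percentage, an intensity trend, the 4 libraries of a comparison alone, a replicate block, an unadjusted p, a fold of 2, and leaving out each library. No set test was run.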

Additional observations from a re-analysis of the deposited data

How the results depend on the processing

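With 2 libraries in a group, calls can be lost on leaving out a library, and a library left alone in its group is assumed to vary like the other groups. Such a loss need not come with a smaller change. For Gstm5 in ADPKD against WT the log2 fold change was 1.66 without WT replicate 1 and 1.69 without WT replicate 2, against 1.67 with all libraries. The 9 members higher in ADPKD against WT became 5 at a fold of 2 and 2 to 10 on leaving out a library, lowest without WT replicate 2. Over all tested genes the same count went from 1775 to 943 at a fold of 2 and to between 571 and 2247 on leaving out a library. The 2 lower became 4 at an unadjusted p, 1 at a fold of 2 and 1 to 6 on leaving out a library, highest without ADPKD replicate 1. Over all tested genes this count went from 1574 to 1861, to 869 and to between 497 and 2189 in the same order. In MMPP-treated ADPKD against WT the 3 lower became 5 at a common sum and 0 when centred by annotation, beside 6467 of 14862 genes, 7304 of 14862 and 3300 of 12374. The higher and lower counts after MMPP against ADPKD stayed within 1.5 times of 14 and 4 in every setting tried, as did the 15 higher against WT. The cause of the moves in these counts was not tested.

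Same-numbered libraries were compared by their deviations from the group means. These correlated across genes at 0.129 for ADPKD and WT, 0.0137 for ADPKD with and without MMPP, and -0.00796 for MMPP-treated ADPKD and WT. With 2 libraries in a group, such values cannot decide whether the replicate numbers pair the samples. With the replicate block, 10 members were higher and 3 lower in ADPKD against WT, 14 and 4 in MMPP-treated against untreated ADPKD, and 16 and 3 in MMPP-treated ADPKD against WT. Over all tested genes these fits gave 1734 and 1549, 4138 and 6381, and 4470 and 6497.

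In ADPKD against WT and in MMPP-treated against untreated ADPKD, only members not called as deposited changed sign, and the cause was not tested. In MMPP-treated ADPKD against WT, the called members Gstm1 and Gstm5 also changed sign when centred, from -1.11 and -0.89 to 0.82 and 0.78. In ADPKD against WT, at a common sum, Gstm4 was at -0.0072, Gstp1 at -0.051 and Gstz1 at -0.0027, and Gstp1 was at -0.025 with quantile normalization and -0.022 when centred. On leaving out a library, the range was -0.43 to 0.55 for Gstm4, -0.34 to 0.062 for Gstp2, -0.93 to 0.47 for Gstt1, -0.72 to 0.038 for Gstt3 and -0.27 to 0.41 for Gstz1. In MMPP-treated against untreated ADPKD, centring gave -0.73 for Gclc, -0.16 for Gclm, -0.45 for Gsta3, 1.41 for Gstm1 and 1.80 for Gstm4. At a common sum Gclm was at -0.042, Gpx4 at -0.20 and Gstk1 at -0.13. With quantile normalization Gpx1 was at -0.073, Gpx4 at -0.19 and Gstm4 at 0.52, and with TMM factors Gstm4 was at 0.11. Leaving out a library gave -0.11 to 0.86 for Gclc, -0.32 to 0.62 for Gstk1 and -0.63 to 0.35 for Gstm4.

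The pseudocount of 0.1 changed the call of 0 of the 28 members in both ADPKD comparisons, and the fit of 4 libraries changed 2 in ADPKD against WT and 0 in MMPP-treated against untreated ADPKD.

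Other calls in MMPP-treated against untreated ADPKD appeared with TMM factors, for Gpx1 (0.67), Gsta3 (0.68) and Gstm2 (0.81), and Gsta2 was called higher in ADPKD against WT when centred (0.78). In MMPP-treated ADPKD against WT, Gclc, Gclm, Gstm5 and Gstt1 had no call without the filter. Gclm, Gsta3, Gstp1 and Gstt1 had none at a common sum, and Gpx1, Gstm5 (-0.31), Gstp1 and Gstt1 had none with quantile normalization. When centred, Gsta3 also had no call, at a log2 fold change of 0.063 against 0.89 as deposited. Calls gained there were those of Gpx4 with TMM factors and centred, Gpx6 with TMM factors, the 4 libraries and the block, and Gstm7 with TMM factors, quantile normalization and centred, all higher. Gstm2 and Gstm4 were called higher when centred, and Gstk1 lower at a common sum and in the fit of 4 libraries.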
